A study of Mus musculus with 18 samples.

Results

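The genes described here encode the receptors through which cells answer the transmitters glutamate, GABA, glycine and acetylcholine. They were chosen by gene symbol alone: every symbol that starts as an AMPA, kainate, NMDA or delta glutamate receptor gene, a metabotropic glutamate receptor gene, a GABA-A or GABA-B receptor gene, a glycine receptor gene or a nicotinic acetylcholine receptor gene was taken. Names ending in os, and Chrna6, Chrnb3, Chrna9, Chrna10 and Gabra6, were left out. Of the 46583 genes in the table, 71 symbols matched and 64 genes stayed. They comprised 4 AMPA, 5 kainate, 7 NMDA and 2 delta subunits, and 8 metabotropic glutamate receptors in groups I, II and III (2, 2 and 4 genes). Grid2ip, the gene of a scaffold protein of cerebellar synapses, was caught by its symbol and is no receptor. The others were 18 GABA-A subunits (5 alpha, 3 beta, 3 gamma, 3 rho and 4 of other classes), 2 GABA-B subunits, 5 glycine receptor subunits, and 5 muscle-type and 7 neuronal-type nicotinic subunits.

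Ionotropic receptors are channels built from several subunits, so the mix of subunits made by a cell sets how long the channel stays open and which ions it passes. Metabotropic receptors and the GABA-B receptor work through G proteins and change excitability more slowly. In the cochlea, inner hair cells release glutamate onto AMPA receptors of spiral ganglion neurons, and efferent fibres from the brainstem release acetylcholine, GABA and other transmitters onto hair cells and afferent endings.

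RNA was sequenced from the cochlea of untreated mice aged 4 weeks. The mice were controls, given as WT in the labels, or had Fst knocked out conditionally (Fst cKO). Fst encodes follistatin, which is secreted and binds activins, and the promoter or cell type that drives the recombination is not given in the sources used here. Base, middle and apex of the cochlea were taken separately, RNA of each region and genotype was pooled, and each of the 6 pools was split into 3 technical libraries, which gave 18 libraries.

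Library totals ran from 24446760 to 33732726 counts. Levels are given as CPM (counts scaled to a common library total), and levels of different genes are compared only as FPKM, which also divides by gene length. The libraries of a group come from 1 pool, so every SD, standard error (SE) and p-value on libraries holds technical spread and none holds the spread between animals. The same holds where libraries of 2 groups are said not to overlap. The share of all genes that separated so was not counted, so such a separation does not set a member apart from other genes. Between genotypes or control regions 39.5% to 56.8% of all genes had an unadjusted p under 0.05 (edgeR). A gene was called, and is said to have risen or fallen, where its log2 change was at least 1 in size and its adjusted p was under 0.05 (edgeR quasi-likelihood F test, two-sided, Benjamini-Hochberg over the 17901 genes fitted). Of the 64 genes 51 entered that fit. Fst itself stood at 2.06, 2.04 and 2.41 CPM in control base and at 1.97, 1.89 and 1.73 in cKO base, a difference that was not called. In middle it had 6.82, 6.58 and 5.73 against 2.71, 2.88 and 3.38 CPM and in apex 23.4, 25.1 and 24.8 against 9.67, 9.55 and 10.3, and it fell in both (-1.10 ± 0.099 and -1.29 ± 0.063 SE, log2). The deleted exons are not given in the sources used here. The summed level of 13 spiral ganglion neuron markers was 5012 to 5081 CPM in control base, 6141 to 6175 in control middle and 7581 to 7596 in control apex, and 3234 to 3255, 5663 to 5693 and 5559 to 5591 in the cKO. For 7 Schwann cell markers the sums were 3286 to 3341, 3927 to 3966 and 4725 to 4729.8 CPM in the control and 2728 to 2763, 4039 to 4081 and 3626 to 3662 in the cKO. These are bulk samples, in which fewer cells of a type and less RNA per cell cannot be told apart.

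The stretch before the transcription start was read for members that moved together. RefSeq promoter windows (GRCm38.p6, the 250 bases before the start) were found for 46 of the 64 genes. 5 are shown: Grin2c and Gabra2, which both rose in cKO base, Chrna4, which rose in cKO middle, and Glrb and Grin1, which were among the members with the highest FPKM. Each reads 5′ to 3′ along the gene, and capitals mark GGGCGG on either strand, the core of the GC box bound by Sp1-type factors. The windows lie at chr11:115267244-115267493 (Grin2c), chr5:71095850-71096099 (Gabra2), chr2:181039178-181039427 (Chrna4, whose GENCODE gene starts further upstream), chr3:80913661-80913910 (Glrb) and chr2:25319188-25319437 (Grin1), all on the minus strand.
Grin2c: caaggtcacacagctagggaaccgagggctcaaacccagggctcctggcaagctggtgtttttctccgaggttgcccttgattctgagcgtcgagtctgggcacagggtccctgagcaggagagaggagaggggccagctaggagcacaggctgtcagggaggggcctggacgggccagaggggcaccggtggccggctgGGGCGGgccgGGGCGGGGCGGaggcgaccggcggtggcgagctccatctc
Gabra2: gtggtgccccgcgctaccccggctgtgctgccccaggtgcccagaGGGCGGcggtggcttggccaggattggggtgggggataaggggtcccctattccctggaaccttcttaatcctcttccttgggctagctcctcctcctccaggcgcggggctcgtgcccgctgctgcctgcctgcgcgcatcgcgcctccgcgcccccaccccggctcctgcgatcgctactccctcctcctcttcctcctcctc
Chrna4: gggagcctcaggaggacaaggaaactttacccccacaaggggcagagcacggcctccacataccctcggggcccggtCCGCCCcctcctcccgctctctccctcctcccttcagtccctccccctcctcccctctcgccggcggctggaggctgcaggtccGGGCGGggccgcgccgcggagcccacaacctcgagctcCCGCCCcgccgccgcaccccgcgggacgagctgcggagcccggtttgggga
Glrb: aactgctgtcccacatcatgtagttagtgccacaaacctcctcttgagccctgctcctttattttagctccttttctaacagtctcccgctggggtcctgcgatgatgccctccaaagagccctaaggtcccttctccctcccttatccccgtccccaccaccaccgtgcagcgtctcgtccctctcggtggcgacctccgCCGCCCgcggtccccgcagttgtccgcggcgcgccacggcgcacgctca
Grin1: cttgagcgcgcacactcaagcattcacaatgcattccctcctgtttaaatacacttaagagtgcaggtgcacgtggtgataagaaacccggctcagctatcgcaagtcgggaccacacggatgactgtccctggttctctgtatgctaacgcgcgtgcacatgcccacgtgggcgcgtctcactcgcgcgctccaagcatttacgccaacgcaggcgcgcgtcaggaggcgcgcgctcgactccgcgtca

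GGGCGG stood 3 times in the Grin2c window, where 2 of the matches overlap, 3 times in that of Chrna4, 1 time each in those of Gabra2 and Glrb, and 0 times in that of Grin1. The GC content of the 5 windows, in the order printed, was 68.8%, 70.0%, 74.4%, 62.4%, 58.8%. Over all 46 members the motif was present in 24 windows (52.2%), against 32.7% of the 32851 windows of all genes, and the median GC content was 60.4% against 52.4%. For members only the window of the lowest coordinate was counted, out of 55 member windows, while all windows of all genes were. The first 20 transcribed bases lay in a known transcript of the gene for 43 of the 55. The 2 shares are therefore not strictly alike. Searched the same way on both strands, CAGCTG (an E-box form) was in 13.0% of member windows and 13.0% of all windows, and TATAAA was in 10.9% and 12.4%. TGACGTCA, the full cyclic AMP response element, was in 0.0% of member windows and in 1.55% of all, and a core form of the element bound by the neuronal repressor REST was in 0.0% and in 0.00913%. Both were rare over all 32851 windows (508 and 3 windows). A count of 0 in 46 member windows therefore cannot show that the members lack them more than other genes. A match describes letters and is not evidence of binding.

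Glrb, the beta subunit that anchors glycine receptors at synapses, had the highest mean over the 6 groups, at 143 FPKM. Next came the GABA-B subunit Gabbr1 at 60.6 FPKM and Grin1, the obligatory subunit of NMDA receptors, at 32.1. The AMPA subunits Gria3, Gria4 and Gria2 had 15.4, 10.01 and 8.10 FPKM. The kainate subunit Grik5 had 15.1, the other GABA-B subunit Gabbr2 14.2 and the glycine receptor alpha subunit Glra3 11.7. The neuronal nicotinic subunit Chrnb2 (6.91), the muscle-type subunit Chrnb1 (6.004) and Grm7, a presynaptic group III metabotropic receptor (4.54), completed the 12 highest. At the other end 21 of the 64 genes stayed under 1 CPM in every group, among them Gabrr3, a GABA-A rho subunit with 0 counts in all libraries, and 43 reached 1 CPM in at least 1 group.

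Among these abundant genes Gabbr1, which holds the GABA binding site of the GABA-B receptor, had 164, 162 and 157 CPM in control base, 176, 173 and 178 in middle and 167, 166 and 163 in apex. In cKO base, middle and apex it had 186, 185 and 183, then 191, 189.6 and 190.2, then 163, 158 and 161 CPM. The cKO libraries lay above those of the control in base and middle and under them in apex. Grin1 had 114, 112 and 110.5 CPM in control base, 127, 127 and 125 in middle and 136, 132 and 134 in apex, against 93.6, 94.2 and 98.9 (base), 114, 113 and 111 (middle) and 113, 113 and 111 (apex) in the cKO. Its control libraries rose from region to region with no overlap, and each cKO group lay under the control of its region. Grik5, an accessory kainate subunit, had 58.3, 57.1 and 54.4 CPM in control base, 50.8, 55.3 and 51.9 in middle and 56.2, 54.8 and 56.5 in apex, and 56.4, 55.4 and 53.8 (base), 53.8, 52.3 and 52.7 (middle) and 57.7, 57.9 and 57.7 (apex) in the cKO. Chrnb1 had 9.64, 9.91 and 9.12 CPM in control base, 10.1, 9.99 and 9.66 in middle and 9.12, 8.32 and 8.59 in apex, and 10.4, 9.51 and 9.97 (base), 11.02, 10.6 and 10.8 (middle) and 8.92, 9.33 and 8.99 (apex) in the cKO. Over the 18 libraries Grik5 stayed between 50.8 and 58.3 CPM and Chrnb1 between 8.32 and 11.02 CPM, and neither was called in any of these comparisons.

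**Figure D1:**
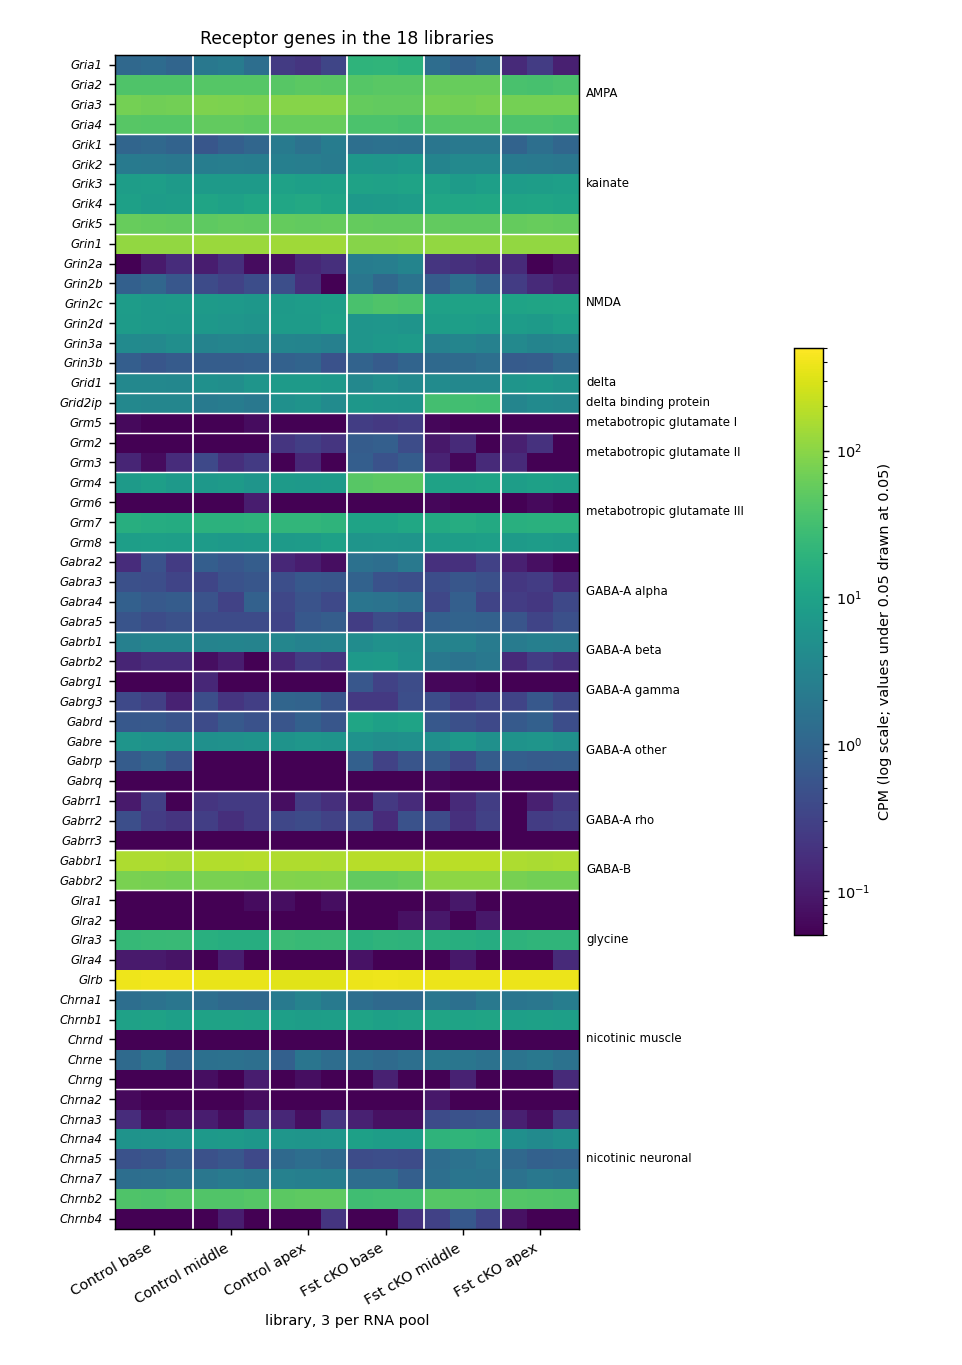
Level of 59 of the genes (rows, grouped by family) in the 18 libraries (columns, grouped by region and genotype), as CPM on a log colour scale on which values under 0.05 are drawn at 0.05. Gria1, Gabrb2 and Gabrd are higher in the 3 cKO base than in the 3 control base libraries, Grid2ip is highest in the 3 cKO middle libraries, and Glrb, Gabbr1 and Grin1 are high in all 18.

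The make-up of several families in the control is given as the share of a subunit in the summed FPKM of its family (mean ± SD of 3 libraries). Gria3 made up 46.7% ± 0.18 of AMPA FPKM in control base, 45.1% ± 0.63 in middle and 47.7% ± 0.29 in apex, while Gria1 held 0.919% ± 0.25, 1.06% ± 0.26 and 0.312% ± 0.35. Grik5 held 73.0% to 78.6% of kainate FPKM over the 3 control regions. Glra3 held 99.3% to 99.7% of glycine alpha FPKM, and Chrnb2 69.7% to 70.3% of neuronal nicotinic FPKM. The NMDA subunits Grin2c and Grin2d, which set the kinetics of the receptor, held 53.0% and 44.5% of GluN2 FPKM in control base and 48.1% and 49.5% in control apex.

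Along the control cochlea few members changed by the fold threshold. From base to apex 2 of the 51 fitted members rose and 4 fell, where 5.48% of all genes were called (2.28% higher, 3.2% lower). From middle to apex 7 rose and 3 fell, where 5.3% of all genes were called (2.08% and 3.22%). From base to middle 1 rose and 2 fell, where 2.73% were called (1.53% and 1.2%). The median log2 change of the members was 0.14, 0.14 and 0.020 in these 3 comparisons, where that of all genes was 0.00, 0.01 and 0.00. Markers of other cells moved along the same axis. Of the 13 hair cell markers 12 rose from base to apex and 12 from middle to apex, and their summed level was 182 to 187 CPM in control base, 225 to 231 in middle and 607 to 618 in apex. Of the 9 oligodendrocyte markers fitted 7 rose from base to middle and 7 fell from middle to apex, with sums over the 10 listed of 65.5 to 69.7, 193 to 198 and 57.9 to 60.3 CPM. The part of these cells in the receptor changes along the control cochlea was not tested.

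Gria1, an AMPA subunit of many central synapses, fell toward the apex. Its level was 1.12, 1.26 and 1.02 CPM in control base, 1.97, 2.31 and 1.41 in middle and 0.245, 0.209 and 0.348 in apex. The apex libraries lay under all of the others, and the difference from base was -2.15 ± 0.31 log2 (adjusted p = 2.47e-07, edgeR), that from middle -2.85 ± 0.27 (adjusted p = 5.01e-11). Grid2ip had means of 3.51, 2.17 and 5.01 CPM from base to apex and rose from middle to apex by 1.17 ± 0.12 log2.

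Subunits with low levels made up most other calls. Chrna5, an accessory nicotinic subunit, stood at 0.485, 0.620 and 0.380 CPM in control middle and at 1.15, 1.39 and 1.18 in apex, a change of 1.28 ± 0.26 log2. The kainate subunit Grik1 stood at 0.588, 0.827 and 1.04 against 2.13, 1.60 and 2.36 CPM, a change of 1.27 ± 0.21. For both genes the middle and apex libraries did not overlap. Gabra2, a synaptic GABA-A alpha subunit, was highest in middle (0.796, 0.620 and 0.759 CPM) and lowest in apex (0.140, 0.104 and 0.0695), with 0.161, 0.518 and 0.245 in base. The NMDA subunit Grin2b had means of 0.828, 0.391 and 0.221 CPM from base to apex. Its FPKM means ran the other way, at 0.0419, 0.0460 and 0.0617, with SD of 0.016, 0.029 and 0.083. Control apex replicate 1 alone had 0.157 FPKM. The calls of Grin2b rest on counts. Without control base replicate 2, Gabra2 was no longer called between base and apex (log2 -0.96, adjusted p = 0.205, edgeR) nor Grin2b between base and middle (-0.93, adjusted p = 0.122). Between base and middle the call of Gabra2 was also lost without control base replicate 1 (0.84, adjusted p = 0.0877), and that of Grin2b without control middle replicate 2 (-0.98, adjusted p = 0.0896). The rise of Gabra2 from base to middle went from 1.18 to 1.82 log2 without control base replicate 2, and the fall of Grin2b from base to apex from -1.98 to -3.03 without control apex replicate 1.

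Members of the lowest levels were singled out after their values were seen. Gabrp, the pi subunit found in epithelia, had 67 counts over the control base libraries (0.739, 0.971 and 0.573 CPM), 0 in middle and 1 in apex. That is at least 22.5-fold lower in middle (3 counts taken over the group) and lower in apex by a ratio of 66.7 (exact 95% interval 11.6 to 2675, counting error only). Grm2, a group II metabotropic receptor, went the other way, with 0 counts in control base, 1 in middle and 20 in apex. Gabrg3 had means of 0.267, 0.311 and 0.836 CPM from base to apex and rose in apex against base (1.51 ± 0.37 log2) and against middle (1.37 ± 0.36). Grm3 fell from middle to apex (-2.44 ± 0.70 log2, means of 0.265 and 0.0464 CPM). Its apex counts were 0, 4 and 0, all in replicate 2, and without that library the fitted change was -5.96, which against a group at 0 counts is no bound. The rise of Gabrb2 between the same regions (1.66 ± 0.66 log2, adjusted p = 0.0389, edgeR) was lost without control apex replicate 2 or 3 or control middle replicate 1 or 3, with adjusted p-values of 0.066 to 0.185, and with DESeq2 (adjusted p = 0.0585), and was 2.33 log2 without control middle replicate 2.

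Under the fold threshold several abundant members formed a shallow gradient. With the adjusted p alone, 18 of the 51 members were higher and 9 lower in control apex than in base, where 26.7% and 25.8% of all genes were. The counts were 18 and 8 for apex against middle (23.1% and 22.4% of all genes) and 12 and 11 for middle against base (15.9% and 15.6%). Gria3 stood at 73.9, 68.8 and 70.7 CPM in base and 83.1, 80.3 and 77.1 in middle, against 92.2, 94.4 and 94.8 in apex, and Grm7 at 16.0, 15.1 and 14.6, then 18.4, 18.3 and 19.3, then 21.8, 21.8 and 20.3 CPM. In both genes the libraries of the 3 regions did not overlap, and the apex-base differences were 0.33 ± 0.029 and 0.41 ± 0.053 log2. The same difference was 0.32 ± 0.031 for Gria4, 0.20 ± 0.030 for Gria2, 0.19 ± 0.022 for Grin1 and 0.31 ± 0.035 for Chrnb2, and, among members picked after their values were seen, 0.78 ± 0.17 for Chrna7 and 0.93 ± 0.10 for Grid1. Glrb ran in the opposite direction, from a mean of 404 CPM in base through 363 to 331 in apex (-0.35 ± 0.014 log2, adjusted p = 1.10e-21, edgeR). Glra3 dipped in middle: its libraries held 23.5, 25.2 and 25.5 CPM in base and 26.4, 24.6 and 25.7 in apex but 16.4, 15.7 and 15.6 in middle, and the cKO means were 19.1, 16.1 and 20.004 CPM. The summed spiral ganglion and Schwann cell markers rose along the same axis, and their part in these gradients was not tested.

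In the base of the cKO cochlea 15 of the 51 fitted members rose and 0 fell (edgeR, and DESeq2 also gave 15 and 0), where 3.03% of all genes were called (2.51% higher, 0.514% lower). Among the 15 were the AMPA subunit Gria1, the NMDA subunits Grin2a and Grin2c, the kainate subunit Grik2, the metabotropic receptors Grm2, Grm3 and Grm4, and the GABA-A subunits Gabra2, Gabra4, Gabrb2 and Gabrd. No glycine, GABA-B or nicotinic member was among them. The median change was 0.20 log2 over the members and -0.02 over all genes.

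Among the glutamate receptors Gria1 went from 1.12, 1.26 and 1.02 to 19.7, 20.5 and 18.7 CPM (4.09 ± 0.12 log2, adjusted p = 5.52e-25, edgeR). Grin2a, an NMDA subunit of the adult forebrain and cerebellum, went from 0.0321, 0.0971 and 0.164 to 2.40, 2.58 and 3.23 CPM (4.81 ± 0.36). The groups did not overlap in either gene, and both were near or under 1 CPM in control base. Grin2a reached the level of the count filter only in cKO base, so it had to differ there.

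Grm4, Grin2c and Grik2 stood higher in control base than Gria1 and Grin2a, and their log2 changes were smaller. Some members under 1 CPM in control base, given below, also had smaller log2 changes. Grm4, a group III receptor that lowers transmitter release, stood at 7.62, 8.84 and 7.32 CPM in control base and at 44.9, 48.3 and 49.2 in cKO base (2.57 ± 0.056 log2, adjusted p = 3.41e-29, edgeR). Grin2c moved from 8.16, 7.25 and 7.57 to 35.9, 39.2 and 37.1 CPM (2.28 ± 0.056). Grik2, a kainate subunit that forms channels on its own, had 2.15, 2.10 and 1.92 CPM in the control and 6.61, 6.35 and 7.27 in the cKO (1.69 ± 0.12). All cKO base libraries lay above all control base libraries in these 3 genes.

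GABA-A subunits were also among the members that rose. Gabrd, which replaces gamma in receptors outside the synapse, had 0.643, 0.648 and 0.532 CPM in control base against 11.4, 9.35 and 10.4 CPM (4.06 ± 0.17 log2, adjusted p = 5.89e-21, edgeR). Gabrb2 had 0.129, 0.162 and 0.164 against 7.19, 7.47 and 5.50 CPM (5.43 ± 0.25). Gabra2, a synaptic alpha subunit, went from 0.161, 0.518 and 0.245 to 1.55, 1.39 and 2.04 CPM (2.39 ± 0.30, and 3.03 without control base replicate 2). The libraries of the groups did not overlap in these 3 genes.

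Low members were again named after their values were seen. Grm2 had 0 counts over the control base libraries and 51 over those of the cKO, at least 18.9-fold higher with 3 counts taken over the control group. Grm3 rose from a mean of 0.119 to 0.668 CPM (2.48 ± 0.48 log2) and Gabra4 from 0.740 to 1.63 (1.13 ± 0.27). By group mean, Grm2 and Grm3 reached the level of the count filter only in cKO base, so they had to differ there. Gabrg1 and Grm5 were too low for the fit. Gabrg1 had 1 count in control base and 35 in cKO base, a ratio of 38.9 (exact 95% interval 6.54 to 1579), and Grm5 had 3 and 20, a ratio of 7.41 (exact 95% interval 2.196 to 38.9).

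With the adjusted p alone 23 members were higher in cKO base, where 16.5% of all genes were, and 10 were lower, where 19.6% were. The lower members included genes abundant in the control: the log2 difference was -0.24 ± 0.024 for Grin1, -0.37 ± 0.033 for Gria3, -0.33 ± 0.035 for Gria4, -0.44 ± 0.034 for Gabbr2, -0.38 ± 0.050 for Glra3, -0.37 ± 0.039 for Chrnb2 and -0.49 ± 0.063 for Grm7. Glrb had 397, 405 and 409 against 379.7, 389 and 384 CPM, a difference of -0.079 ± 0.014. Gabbr1 (0.19 ± 0.020), Gria2 (0.22 ± 0.031) and Chrna4 (0.57 ± 0.081) were higher by less than the fold threshold.

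Markers of cerebellar neurons moved with the calls in cKO base. Of 10 granule cell markers 9 rose there (median 5.88 log2), and their summed level was 594 to 607 CPM in cKO base against 319 to 338 in control base. It was 319 to 323 in control middle, 219.8 to 225 in control apex, 308 to 311 in cKO middle and 289.7 to 296 in cKO apex. Gabra6, the alpha subunit that defines granule cells and is left out by the rule, had 0 counts in control base and a mean of 21.9 CPM in cKO base, and Barhl2 and Tlx3 were also at 0 in control base. Of 8 Purkinje cell markers 6 rose, with a summed level of 1038 to 1061 CPM against 876 to 882, and Skor2 was at 0 in the 3 control groups. Of the 13 spiral ganglion markers 10 were lower and 1 higher at the adjusted p alone, as were 7 and 0 of the 7 Schwann cell markers. The part of these cells in the receptor changes of cKO base was not tested.

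**Figure D2:**
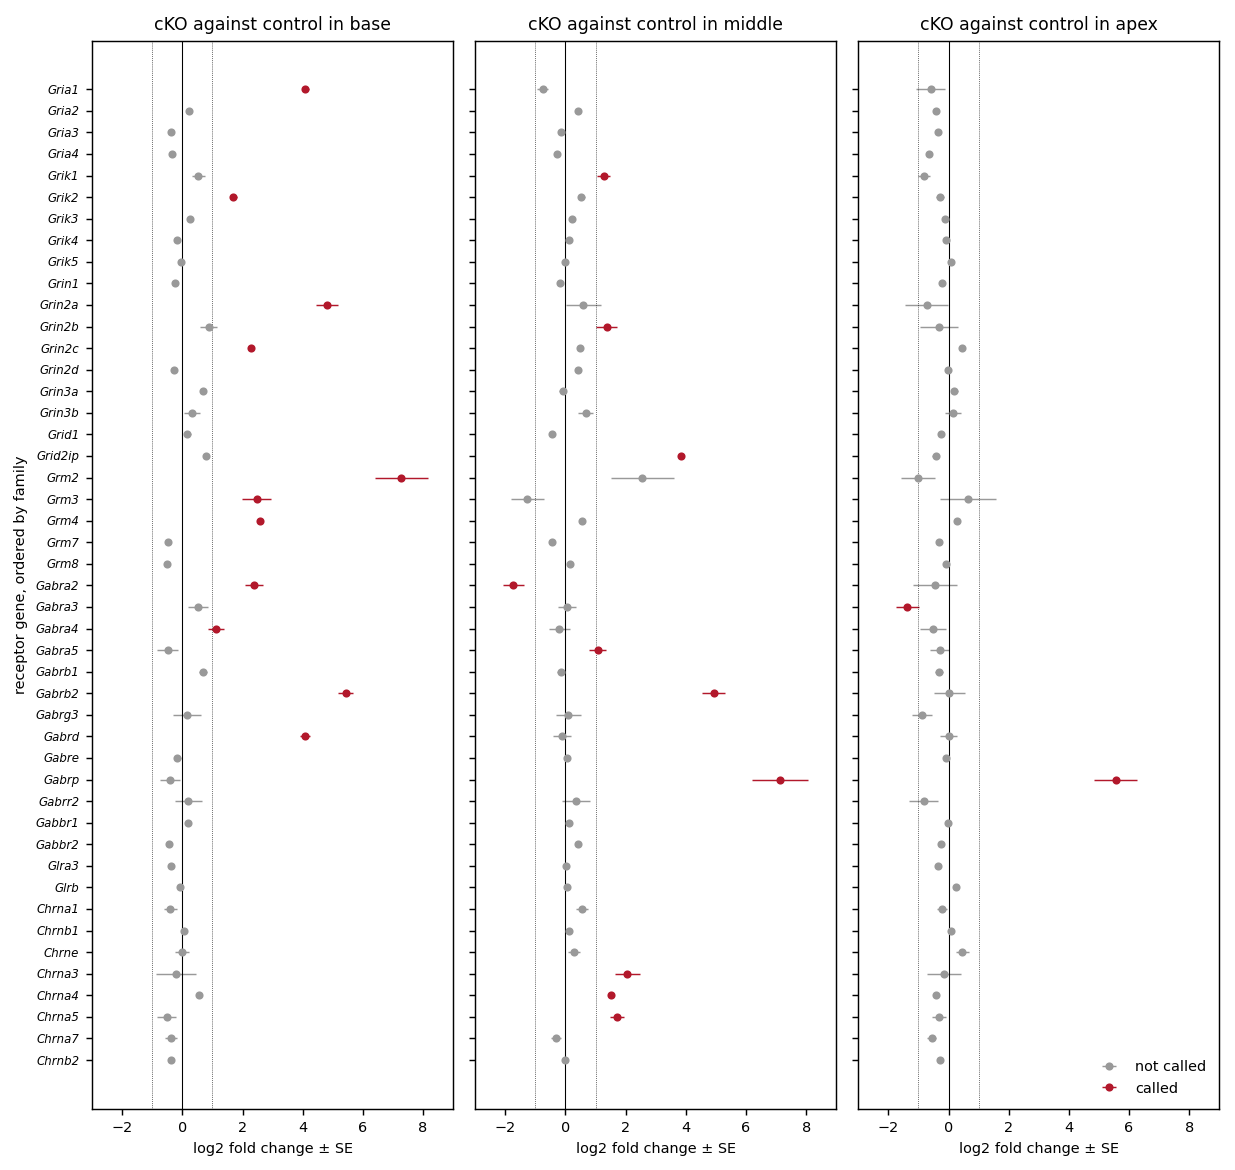
Log2 change ± SE of cKO against control for 46 of the fitted members in base, middle and apex, with called members in red. Of the genes drawn, 11 rose in base, 9 rose and 1 fell in middle, and 1 rose and 1 fell in apex.

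Gabrg1, Gabra2, Gabra4 and Gabrb1 lie near each other on chromosome 5, which the rule did not use and which was looked up after the values were seen. Gabra2 (chr5:70957597-71095849) and Gabra4 (chr5:71569749-71658308) rose in cKO base, Gabrg1 (chr5:70751047-70842617) was too low for the fit, and Gabrb1 (chr5:71658113-72149037) was not called.

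In the middle turn 10 members rose and 1 fell, where 2.72% of all genes were called (2.15% higher, 0.575% lower). Of the 5 neuronal nicotinic subunits in the fit, 3 rose. Chrna3, 1 of the 3, reached the level of the count filter only in cKO middle, so it had to differ there. Chrna4, which pairs with Chrnb2 in the most common nicotinic receptor of the brain, stood at 7.16, 7.51 and 6.52 CPM in control middle and at 20.2, 20.7 and 19.6 in cKO middle (1.5004 ± 0.063 log2, adjusted p = 1.99e-20, edgeR). Chrna5 went from 0.485, 0.620 and 0.380 to 1.34, 1.63 and 1.96 CPM (1.71 ± 0.24). Neither gene overlapped between the groups. Chrnb2 itself had 41.7, 41.6 and 44.7 against 44.5, 43.2 and 40.9 CPM, which overlap, and was not called (-0.006 ± 0.034).

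Chrna5, Chrna3 and Chrnb4 lie side by side on chromosome 9 (chr9:54980880-55007779, chr9:55010111-55026562 and chr9:55028154-55048779). Chrna3, named after its values were seen, rose from a mean of 0.115 to 0.495 CPM in middle (2.05 ± 0.42 log2). Chrnb4, also picked by its values, was too low for the fit and had 0.0346, 0.103 and 0 CPM in control middle and 0.298, 0.623 and 0.326 in cKO middle. It was called without the count filter (log2 3.05, adjusted p = 0.000271, edgeR) and by DESeq2 (3.16, adjusted p = 0.02). In cKO base and cKO apex Chrna3 and Chrna5 were not called.

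Grid2ip, the scaffold gene caught by its symbol, had 2.13, 2.37 and 2.02 CPM in control middle and 32.4, 30.4 and 30.1 in cKO middle (3.82 ± 0.081 log2, adjusted p = 2.29e-29, edgeR). Gabrb2 went from 0.0692, 0.103 and 0 to 1.996, 1.66 and 2.02 CPM (4.92 ± 0.38 log2, and 5.59 without control middle replicate 2). The groups did not overlap for either gene.

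Grin2b, the NMDA subunit of the developing forebrain, rose from 0.415, 0.310 and 0.449 to 0.745, 1.45 and 0.889 CPM (1.37 ± 0.36 log2, adjusted p = 0.00235, edgeR), and Grik1 from 0.588, 0.827 and 1.04 to 1.85, 2.08 and 2.05 (1.27 ± 0.21). Gabra2 fell (-1.73 ± 0.36), from 0.796, 0.620 and 0.759 to 0.179, 0.178 and 0.296 CPM, opposite to its change in base. In each of the 3 genes the groups did not overlap. Named after their values were seen, Gabra5 rose from a mean of 0.414 to 0.881 CPM (1.07 ± 0.29), and Gabrp had 0 counts in control middle and 61 in cKO middle, at least 17.5-fold higher. With the adjusted p alone 23 members were higher, where 17.9% of all genes were, and 8 lower, where 17.7% were. Gabbr2 (78.6, 78.2 and 76.5 against 105, 103 and 106 CPM, 0.42 ± 0.028 log2) and Gria2 (0.40 ± 0.027) were among the higher ones.

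Other transcripts of central neurons moved with these calls. A list of 8 such genes was itself drawn up earlier from these libraries and is therefore no independent evidence. All 8 rose in cKO middle, with a sum of 92.3 to 94.3 CPM against 0.276 to 0.345 in control middle. The sum was 33.6 to 36.4 in cKO base, 0.546 to 0.745 in control base, 0.175 to 0.556 in control apex and 0.333 to 0.444 in cKO apex. In cKO base 3 of the 8 rose (Chrnb3, Rgs8 and Skor2), with a median over the list of 0.13 log2. Of these, Chrnb3 was at most at 0.0514 CPM there, and Rgs8 and Skor2 are also among the Purkinje cell markers given for base. The list holds the nicotinic genes Chrna6 and Chrnb3, which had means of 14.9 and 18.4 CPM in cKO middle and at most 0.0514 in the other groups. Of the 8 Purkinje cell markers 3 rose in cKO middle (Calb1, Rgs8 and Skor2), as did 2 of the 10 granule cell markers. Rgs8 and Skor2 are also in the list of 8, so their rise is no separate evidence. Of the 9 oligodendrocyte markers fitted, 7 fell, with a sum over the 10 listed of 57.6 to 61.9 CPM against 193 to 198. The part of these cells in the receptor changes of cKO middle was not tested.

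**Figure D3:**
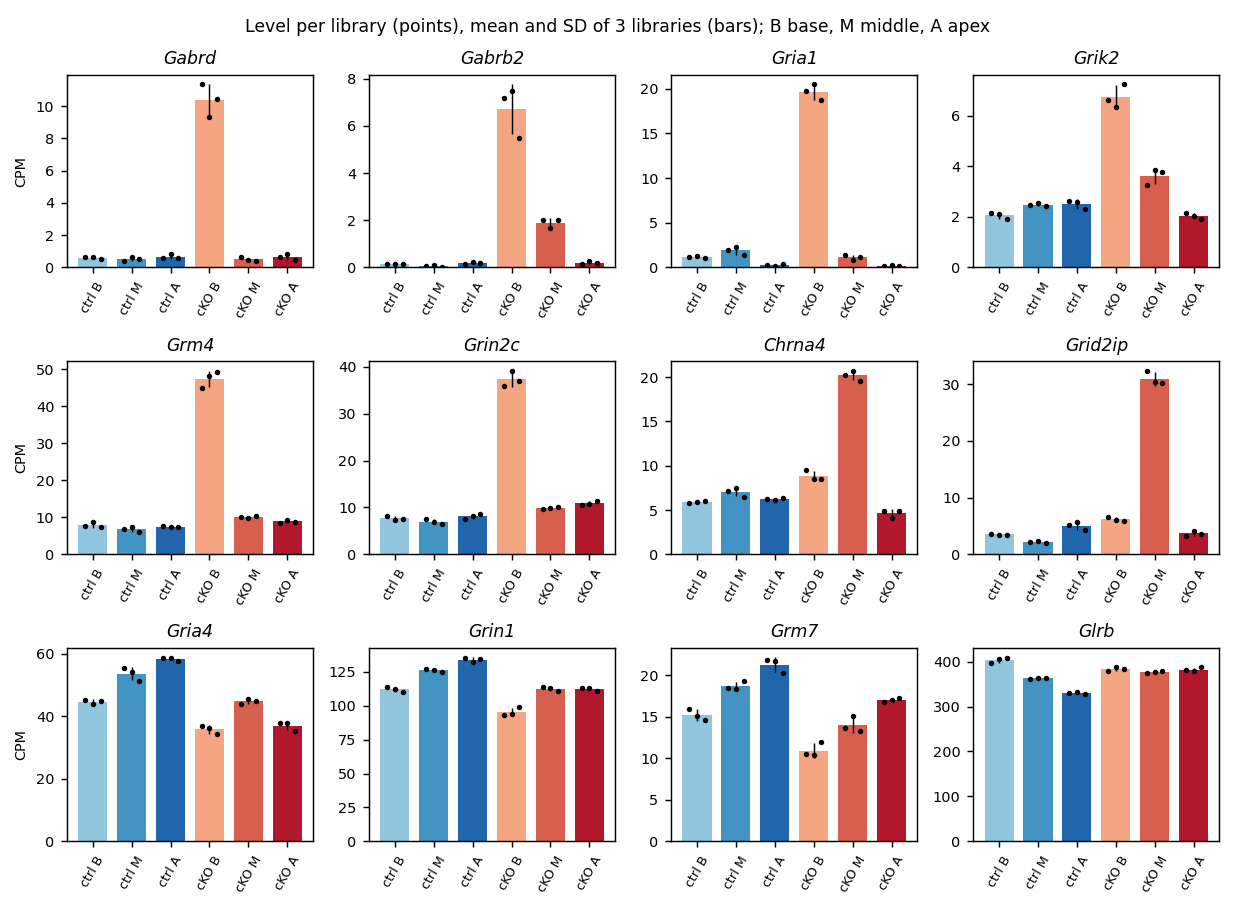
CPM of 12 members in each of the 18 libraries (points), with the mean and the SD of the 3 libraries of a group as bars. Gabrd, Gabrb2, Gria1, Grik2, Grm4 and Grin2c are highest in cKO base, Grid2ip and Chrna4 in cKO middle, and Gria4, Grin1 and Grm7 are lower in the cKO than in the control of each region.

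In the apex 1 member rose and 1 fell, where 2.04% of all genes were called (1.49% higher, 0.553% lower), and both were named after their values were seen. Gabrp had 1 count over the control apex libraries and 60 over those of the cKO (0.781, 0.704 and 0.740 CPM), a ratio of 63.9 (exact 95% interval 11.03 to 2563). Gabra3 fell from 0.454, 0.626 and 0.591 to 0.223, 0.259 and 0.148 CPM (-1.37 ± 0.38 log2, adjusted p = 0.00409, edgeR), with no overlap. Without Fst cKO apex replicate 2 the number of calls was 4 in place of 2, with Grik1 (log2 -1.02) and Gabrg3 (-1.21) added.

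With the adjusted p alone 16 members were lower in cKO apex and 4 higher, where 18.8% and 21.8% of all genes were. The median change was -0.26 log2 over the members and 0.00 over all genes. Gria4, an AMPA subunit with fast kinetics, had 58.5, 58.7 and 57.8 CPM in control apex and 37.7, 37.7 and 35.2 in cKO apex (-0.64 ± 0.033 log2, adjusted p = 5.83e-18, edgeR). Gria2, the subunit that keeps calcium out, had 46.4, 48.8 and 48.0 against 35.1, 34.3 and 36.3 CPM (-0.42 ± 0.031), and Gria3 92.2, 94.4 and 94.8 against 72.0, 72.5 and 73.5 (-0.35 ± 0.029). The groups did not overlap in these 3 AMPA genes, in a comparison where 47.2% of all genes had an unadjusted p under 0.05 (edgeR). Grin1 (-0.23 ± 0.022), Grm7 (-0.30 ± 0.052), Glra3 (-0.33 ± 0.049), Chrnb2 (-0.27 ± 0.035), Gabbr2 (-0.26 ± 0.031) and Chrna4 (-0.40 ± 0.091) were lower as well. Glrb, at 331, 332 and 329 against 381, 379.9 and 387 CPM, was higher (0.23 ± 0.015), as were Grin2c (0.45 ± 0.071) and Grm4 (0.27 ± 0.080). Beside these, 11 of the 13 spiral ganglion and 7 of the 7 Schwann cell markers were lower at the adjusted p alone, with the sums given above, and 5 of the 9 oligodendrocyte markers fell. Their part in the receptor differences of cKO apex was not tested.

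In each of the 3 regions 6 members differed in the same direction at the adjusted p alone. Gria3, Gria4, Grin1 and Grm7 were lower in cKO base, middle and apex, as were 3.57% of all genes, and Grin2c and Grm4 were higher, as were 2.9%. In the order base, middle and apex the log2 differences were -0.33, -0.27 and -0.64 for Gria4, -0.24, -0.18 and -0.23 for Grin1, -0.37, -0.14 and -0.35 for Gria3, and -0.49, -0.43 and -0.30 for Grm7. For Grin2c they were 2.28, 0.49 and 0.45 and for Grm4 2.57, 0.56 and 0.27. Of the 13 spiral ganglion markers 10 were lower and 1 higher in base at the adjusted p alone, 6 and 6 in middle, and 11 and 1 in apex. Their part in these 6 receptor differences was not tested.

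With the 3 libraries of each pool summed, 6 pools and 2 residual degrees of freedom were left. The coefficient of variation that edgeR names biological was 0.116, against 0.00988 among libraries, where it holds technical spread. No region and genotype had replicate pools. The residual of the pool fit therefore mixes differences of the genotype effect between regions with any spread between pools. It does not measure spread between animals, and a gene that changed in only some regions could hardly be called. In that fit (edgeR, region as a factor) 0 members and 0.0% of the 19446 genes were called, 10 members and 2133 of all genes had an unadjusted p under 0.05, and DESeq2 called 2 members and 45 genes. The 4 genes that were lower in every region were Grm7 (-0.41 ± 0.064 log2, adjusted p = 0.226), Grin1 (-0.22 ± 0.039 log2, adjusted p = 0.248), Gria4 (-0.41 ± 0.081 log2, adjusted p = 0.265) and Gria3 (-0.29 ± 0.059 log2, adjusted p = 0.285). Whether pools of different regions hold RNA of the same animals is not given in the sources used here.

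The effects of genotype were compared between regions by interaction contrasts. The effect in base was above that in apex for 18 members and under it for 1, where 2.41% of all genes were called (1.56% and 0.855%). The effect in middle was above that in apex for 10 and under it for 0, where 3.6% were called (1.93% and 1.67%). Middle was above base for 5 and under it for 12, where 4.7% were called (2.16% and 2.54%). At the adjusted p alone the counts were 24 and 5 (8.51% and 16.3% of all genes), 24 and 1 (18.1% and 19.9%), and 17 and 16 (18.4% and 15.1%). For Gabrb2 the effect differed from that in apex by 5.41 ± 0.68 log2 in base and by 4.90 ± 0.74 in middle, and the difference between middle and base was -0.51 ± 0.92 (adjusted p = 0.732, edgeR).

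The makeup of several families differed in cKO base, given as the share of summed FPKM (mean ± SD of 3 libraries). Grin2c held 84.8% ± 1.8 of the GluN2 FPKM there and 53.0% ± 3.05 in control base, while the summed GluN2 FPKM was 10.6 against 3.47. Gria1 held 13.4% ± 2.54 of AMPA FPKM against 0.919% ± 0.25, with sums of 33.3 and 33.1 FPKM. Grm4 held 60.4% ± 0.88 of metabotropic glutamate FPKM against 19.7% ± 1.2, and Grm7 16.7% ± 1.4 against 47.6% ± 0.87. In cKO middle Chrna4 held 34.3% ± 0.74 of neuronal nicotinic FPKM against 17.4% ± 1.4, and Chrnb2 52.6% ± 1.2 against 69.7% ± 2.7. In cKO apex Gria3 held 52.1% ± 0.70 against 47.7% ± 0.29 in control apex. Shares were not tested, and the share of a subunit also moves with the levels of the others.

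**Figure D4:**
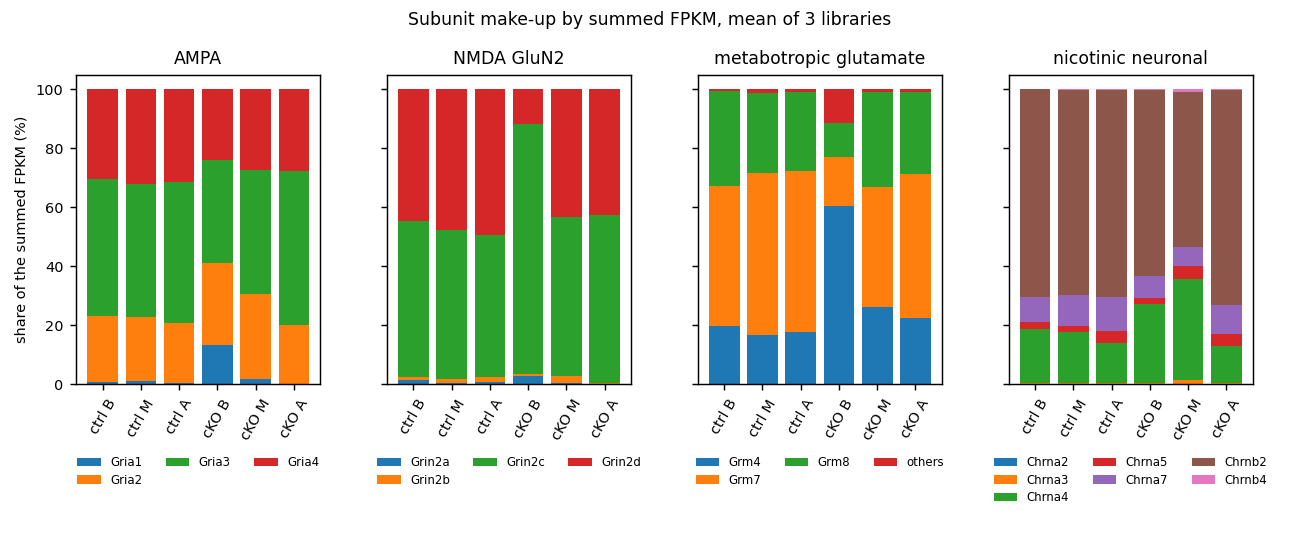
Share of the summed FPKM of a family held by each subunit in the 6 groups (mean of 3 libraries, stacked to 100%), for AMPA, GluN2, metabotropic glutamate and neuronal nicotinic genes, with the metabotropic genes other than Grm4, Grm7 and Grm8 summed. Grin2c and Grm4 hold larger shares in cKO base (84.8% and 60.4%) than in control base, and Chrna4 holds 34.3% in cKO middle.

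Genes that work with these receptors were read from lists made by function. Of 51 partners (scaffolds, auxiliary subunits and secreted organisers) 48 were fitted. In cKO base 5 rose and 0 fell, where 2.51% and 0.514% of all genes did. In cKO middle 2 rose and 0 fell, where 2.15% and 0.575% of all genes did. In cKO apex 0 were called (edgeR), with 9 higher and 20 lower at the adjusted p alone, where 21.8% and 18.8% of all genes were. Nptx1, a pentraxin that clusters AMPA receptors, rose in cKO base from 2.89 ± 0.30 to 26.9 ± 1.3 CPM (mean ± SD, 3.21 ± 0.074 log2), and Cbln1, a secreted organiser of cerebellar synapses, from 7.78 ± 0.23 to 43.2 ± 0.26 CPM (2.47 ± 0.056). The AMPA auxiliary subunits Shisa6, Shisa9 and Cnih3 were the others. In cKO middle Nptx2, a related pentraxin, rose from 2.34 ± 0.30 to 13.0 ± 1.0004 CPM (2.46 ± 0.11 log2) and Shisa6 rose by 1.13 ± 0.21. Dlg4, the main scaffold of excitatory synapses, had means of 93.0 CPM in control base and 88.0 in cKO base, and Gphn, the scaffold of inhibitory synapses, 37.6 and 36.8, and neither was called. Along the control cochlea Cnih3, Nptx1 and Shisa9 rose from base to apex, and Cacng4, Cbln1 and Neto2 fell, where 2.28% and 3.2% of all genes did.

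Of 20 genes of transmitter synthesis and transport 17 were fitted, and in cKO base 6 rose and 0 fell, where 2.51% and 0.514% of all genes did. Gad1 (0.881 ± 0.18 to 16.8 ± 0.79 CPM, 4.26 ± 0.13 log2) and Gad2 (5.55 ± 0.32) make GABA, and Slc32a1 loads GABA and glycine into vesicles. The others were the GABA transporter Slc6a11, the glycine transporter Slc6a5 and Slc1a6, the glutamate transporter of Purkinje cells (2.94 ± 0.13). In cKO middle Slc6a11 fell (-1.47 ± 0.27) and 0 rose, where 0.575% and 2.15% of all genes did. In cKO apex 0 were called (edgeR), with 5 higher and 8 lower at the adjusted p alone, where 21.8% and 18.8% of all genes were. Slc17a8, the vesicular glutamate transporter of inner hair cells, was not called between genotypes in any region and rose from base to apex in the control (1.47 ± 0.058 log2).

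Counting limits some of these values. Of the 64 members 23 share exon bases with another annotated gene, and no source used here says that the counting used strand, so reads of overlapping genes cannot be told apart. Among genes named above this holds for Chrnb2 (with Adar), Grin1 (Grin1os), Gabra4 and Gabrb1 (with each other), Grm7, Grid2ip, Grin2b, Grin2c, Grin2d, Grm2 and Gabra5, and for small RNA genes within Gria2, Gria3, Gria4 and Grid1. Of the fitted members 5, among them Grin2a, Grm3, Chrna3 and Grm2, reached the level of the count filter, 0.348 CPM, in at most 1 group. A gene that enters the fit only through the group in which it is high had to differ there, so the counts of called members are a description and no independent support. The 13 members outside the fit were Gabrr1, Gabrr3, Glra1, Glra2, Glra4, Chrnb4, Chrna2, Chrnd, Chrng, Gabrq, Gabrg1, Grm5 and Grm6.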

How the data were processed

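RNA of 6 pools (base, middle and apex of control and Fst cKO cochlea) was sequenced in 3 technical libraries each. Ribosomal RNA was removed with Ribo-Zero and libraries were prepared by TruSeq RNA v2, per the labels' protocols. STAR 2.5.2b, Cuffdiff 2.2.1 and the build GRCm38/mm10 are named, per the submitters' processing notes, without the role of each. The authors deposited expected counts (estimated counts, not normalized) per gene and library, of which 89.2% to 89.9% were whole numbers (tolerance 1e-06). The authors also deposited FPKM values per library, scaled by gene length and depth. The tool that made the counts is not given in the sources used here.

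Counts were rounded and modelled with edgeR 4.0.16 in R 4.3.3: filterByExpr left 17901 of 46583 genes, TMM factors ran from 0.977 to 1.03, and 1 design of 6 groups left 12 residual degrees of freedom. Errors of log2 changes are SE of the fit with 3 libraries per group. CPM are counts over the library total, scaled to the CPM unit. Promoter windows are from RefSeq and gene positions from GENCODE, both on GRCm38. Alternatives were limma 3.58.1 on log2(FPKM + 1), DESeq2 1.42.0, other filters and thresholds, a replicate block and leaving out each library. The fitting scripts were tested on simulated data. Intervals and floors (3 counts) cover counting error only, since reads carry no molecular identifiers.

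Members and gene lists were chosen with earlier results of these data known. Named, with values by library in at least 1 comparison, were members called in a comparison of genotypes or control regions with a mean of at least 1 CPM in 1 of the groups (at most 12 per comparison, by absolute log2 change), and the 12 with the highest mean FPKM; 29 members met this rule, and any other is said to be named after its values were seen. Results of some members are not reported here.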

Additional observations from a re-analysis of the deposited data

Results flagged for a closer look

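For 12 of the named members the effect of genotype differed between regions by an interaction contrast of the edgeR fit (adjusted p under 0.05 and an absolute log2 difference of at least 1). These 12 had been named because they were called between genotypes in base or middle of the same fit. The contrasts are therefore a description and no independent support. Of all genes 2.41% were called for base minus apex, 3.6% for middle minus apex and 4.7% for middle minus base. The effect in base was larger than that in apex by a log2 difference of 4.68 for Gria1, 2.84 for Gabra2, 1.82 for Grin2c, 1.22 for Grid2ip, 4.06 for Gabrd, 2.30 for Grm4, 1.35 for Grik1, 5.41 for Gabrb2, 1.97 for Grik2 and 5.54 for Grin2a. The effect in middle was larger than that in apex by 4.25 for Grid2ip, 2.03 for Chrna5, 2.08 for Grik1, 1.90 for Chrna4 and 4.90 for Gabrb2. Between middle and base, the effect in middle was larger by 3.03 for Grid2ip and 2.23 for Chrna5, and the difference (middle minus base) was negative for the others: -4.84 for Gria1, -4.11 for Gabra2, -1.79 for Grin2c, -4.17 for Gabrd, -2.01 for Grm4, -1.16 for Grik2 and -4.21 for Grin2a. The libraries are technical, so these contrasts compare 1 pool with 1 pool in each region and genotype. The markers of central neurons given in the report moved with the base and middle effects, and their part was not tested.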

How the results depend on the processing

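In every group the 3 libraries share 1 pool, so no alternative here measures the spread between animals. Counts of members called are given in the order of the comparisons cKO against control in base, middle and apex, control apex against base, apex against middle and middle against base, and the differences of the cKO effect, base minus apex, middle minus apex and middle minus base; as reported they were 15, 11, 2, 6, 10, 3, 19, 10 and 17. Without a fold threshold they were 33, 31, 20, 27, 26, 23, 29, 25 and 33. Restricted to genes whose mean reached 5 CPM, they were 6, 2, 0, 0, 0, 0, 5, 2 and 5. The members tested at that level were 26, 22, 22, 22, 22, 21, 25, 23 and 24. Of all genes 102, 98, 28, 286, 204, 89, 84, 142 and 216 were called there, out of 12344 to 12406. At that level 23, 16, 15, 13, 17, 17, 17, 16 and 18 members had an unadjusted p under 0.05, as had 41.2% to 66.6% of all genes. No test was redone there, so every member called in cKO apex or between control regions had a mean under 5 CPM. With limma on log2(FPKM + 1), which shrinks changes of low genes, they were 9, 3, 0, 0, 0, 0, 9, 3 and 7, with 35, 29, 20, 23, 21, 18, 31, 25 and 34 at an unadjusted p under 0.05. Of all 17901 genes limma called 122, 111, 46, 253, 203, 84, 111, 170 and 246, and 29.2% to 49.9% had an unadjusted p under 0.05. Leaving out 1 library at a time gave 15 to 17, 11 to 12, 2 to 4, 6 to 9, 9 to 12, 2 to 3, 17 to 20, 8 to 11 and 16 to 19; the apex count of 4 came without Fst cKO apex replicate 2, and the apex-against-base count of 9 without control apex replicate 2. In the pool fit, where edgeR called 0 members, DESeq2 called 2, and without the base pools (chosen after seeing the data) edgeR called 0 members and 18 genes, with 10 members at an unadjusted p under 0.05.

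A fit without the cKO base libraries, also chosen after seeing the data, gave 11 in middle, 2 in apex, 5 in control apex against base, 8 in apex against middle, 3 in middle against base and 9 for middle minus apex. The replicate block changed 1 count, 12 in place of 11 in middle, where it added Grm2. Same-numbered libraries correlated by -0.0441 to 0.0497 over genes, so the numbers do not pair the libraries, and the block result is no sign of a weaker or stronger effect. Of the 1095 values of the 81 named changes under other settings, 1026 kept their side of the threshold, 13 lost the call, 56 gained it and 0 turned direction. The settings without a fold threshold and with a mean of at least 5 CPM reuse the reported fit. They could not turn a direction, and a change that was not called had no call to lose. The 81 cover the calls of members with a mean of at least 1 CPM in a group compared and the 12 members with the highest FPKM, so the lost calls of Gabrb2, Gabra2 and Grin2b between control regions, given in the report, are not among the 13. Only 25 of the 81 changes were calls as reported, and limma on log2(FPKM + 1) lost 13 of these 25. The 56 gains came without the fold threshold. They were fixed in advance, since changes that were not called entered the 81 only at an adjusted p under 0.05. Members under about 1 CPM rest on few counts, and differences among them are the least precise.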
